A study of Mus musculus with 12 samples.

Results

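The pyruvate-malate cycle moves carbon between pyruvate, oxaloacetate and malate. Pyruvate carboxylase (Pcx) adds a carbon to pyruvate to make oxaloacetate inside mitochondria, malate dehydrogenases interconvert oxaloacetate and malate, and malic enzymes take malate back to pyruvate with release of CO2 and formation of NADPH or NADH. Oxaloacetate can also leave this circuit through a phosphoenolpyruvate carboxykinase (PEPCK), which makes phosphoenolpyruvate and so bypasses the irreversible pyruvate kinase step on the way to glucose, and fructose bisphosphatases bypass the phosphofructokinase step further up. The full gluconeogenic route is best known in liver and kidney, whereas embryonic stem cells (ESCs) are known for high glycolytic flux.

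The members were the genes with the symbols Pcx, Me1, Me2, Me3, Pck1, Pck2, Mdh1, Fbp1 and Fbp2. They were chosen by name, with earlier results of these data known. All 9 were found among 57180 genes in the deposited tables, with 50 annotated transcripts. Bulk RNA was sequenced in 12 libraries of mouse ESCs of the E14 background. In these cells a doxycycline-inducible, catalytically dead Cas9 fused to repressor domains represses the genes its guide RNAs point to. Every library carried that repressor, in cells derived from 1 picked clone. The Neg line carried scramble guides and the 3xKD line carried guides against Pcx, Me1 and Me2 together. Each line was sequenced as ESCs (day 0, in 2iLIF) and as epiblast-like cells (EpiLCs) on day 2 in Activin A, FGF2 and XAV939. Each of the 4 groups had 3 replicate libraries. The study's methods name DMSO or doxycycline for both lines in both states. Its legend on metabolic gene expression in these groups names doxycycline, and the sample titles name no drug. Each genotype was represented by 1 guide-carrying line, so the repression and any other difference between the Neg and 3xKD lines cannot be told apart, and in bulk RNA fewer cells expressing a gene and less RNA per cell cannot be told apart either.

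Totals ran from 11221023 to 19652197 estimated counts per library. The summed level of 6 naive ESC markers was 3671 to 3785 CPM (counts scaled to the effective library size) in Neg ESCs, 2632 to 2686 in 3xKD ESCs, 244 to 254 in Neg EpiLCs and 333 to 346 in 3xKD EpiLCs, and that of 5 formative EpiLC markers was 231 to 242, 268 to 274, 2701 to 3032 and 1600 to 1651 CPM in the same order. The labelled states therefore matched their markers, while both marker sums also separated 3xKD from Neg within a state. Single markers did not all follow the sums. In ESCs 2 of 5 formative markers had 3xKD log2 fold changes above 0, and the 1 called was lower. Dnmt3a rose there from a mean of 139 to 181.5 CPM, while Dnmt3b went from 92.2 to 85.4. In EpiLCs 5 of 6 naive markers were above 0, and Nr0b1 fell from 34.6 to 19.3 CPM. The part of these marker differences in the member results was not tested.

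The guides were matched to the mouse genome (GRCm39) because their position shows where the repressor was directed. Each of the 3 targeting guides had 1 exact match over its last 19 bases, and none of the 4 control guides had one. The Pcx guide matched chr19:4560559-4560577 on the plus strand, in exon 1 and the 5′ UTR of Pcx, 74 bases into the gene from its canonical start site. The Me1 guide matched chr9:86577958-86577976 on the plus strand, in exon 1 and the 5′ UTR of Me1, a gene read from the minus strand, 128 bases into the gene. Other annotated start sites lay nearer, 13 bases from the middle of the match for Pcx and 3 bases for Me1. The matched genomic sites of the Pcx and Me1 guides are shown 5′ to 3′ along the guide, with the adjacent PAM in capitals:
Pcx: aggcaggggccgtcagaggCGG
Me1: gagaagcgctgagtcacggCGG

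Levels between genes were compared as CPM per kilobase of mean effective transcript length. In Neg ESCs the order was Mdh1 at 78.5 ± 0.95 (SD, n = 3 here and below), Me2 at 55.9 ± 2.3, Me1 at 25.5 ± 0.53, Pcx at 12.6 ± 0.19 and Pck2 at 8.28 ± 0.65 CPM per kilobase. Fbp2 followed at 2.32 ± 0.25, and Fbp1, Pck1 and Me3 lay at 0.221, 0.0175 and 0.0112 CPM per kilobase. Cytosolic malate dehydrogenase (Mdh1) and the mitochondrial, NAD-dependent malic enzyme (Me2) were thus the most abundant members in unrepressed ESCs. Their order depends on the length scaling: in CPM, Me2 was at 101.1 ± 4.2 and Mdh1 at 80.0 ± 0.97 in Neg ESCs. The 549-base Mdh1 transcript ENSMUST00000125302 held 42.0% of the Mdh1 TPM there but 11.6% of its estimated counts.

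The order differed between groups, mainly through Pck2, the mitochondrial PEPCK. Pck2 was the fifth member in Neg ESCs and in Neg EpiLCs (7.13 ± 0.62 CPM per kilobase), the third in 3xKD ESCs (22.3 ± 1.0) and the second in 3xKD EpiLCs (23.8 ± 0.77). In 3xKD EpiLCs the Pck2 libraries (23.3 to 24.7 CPM per kilobase) did not overlap the Me2 libraries (19.4 to 20.7), and only Mdh1 stood higher, at 56.5 ± 4.7. This separation depends on the length scaling: in the deposited TPM (a length-scaled abundance) the same libraries were at 17.7, 15.0 and 12.7 for Pck2 and at 16.5, 12.4 and 11.1 for Me2, with Pck2 higher in each library but overlapping ranges. Me1 and Pcx changed places between the states: Pcx was below Me1 in both ESC groups and above it in Neg EpiLCs (17.7 ± 1.8 against 12.8 ± 0.53) and in 3xKD EpiLCs (8.54 ± 0.35 against 6.21 ± 0.57).

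**Figure D1:**
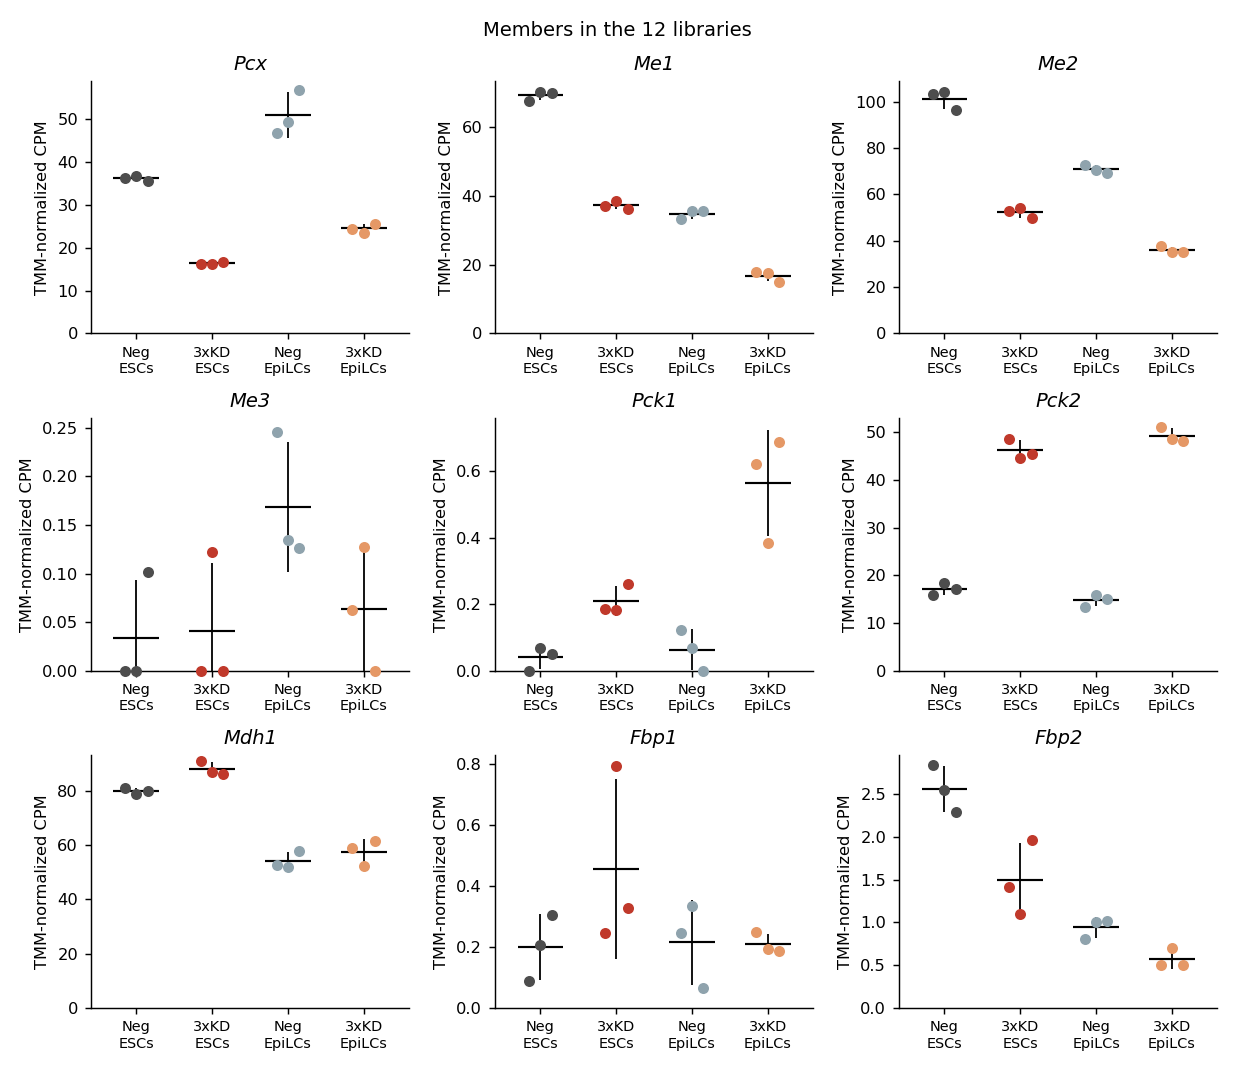
TMM-normalized CPM (y axis, a linear scale starting at 0, different in each panel) of each member in the 12 libraries by group (x axis). Points are libraries, horizontal bars are means and vertical bars are 1 SD, cut off at 0. Pcx, Me1 and Me2 are lower and Pck2 is higher in 3xKD than in Neg in both states, while Me3, Pck1 and Fbp1 stay below 1 CPM in every library.

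The comparison of 3xKD with Neg first checks the 3 targeted genes. All of them fell in both states, to between 45.3% and 53.9% of the Neg level. A gene was called when its Benjamini-Hochberg adjusted p from the edgeR quasi-likelihood test was under 0.01 and its absolute log2 fold change was above 0.58. By this limit 8.5% of the 25446 genes tested were higher and 6.78% lower in 3xKD ESCs than in Neg ESCs, and 7.88% were higher and 5.35% lower in EpiLCs. Among the 9 members, 1 was higher and 3 were lower in ESCs, and 2 were higher and 3 were lower in EpiLCs. The 3 lower members were the guide targets in each state.

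Pcx, the entry of pyruvate carbon as oxaloacetate, was measured at 36.2, 36.7 and 35.7 CPM in the Neg ESC libraries and at 16.2, 16.3 and 16.8 CPM in 3xKD ESCs. In EpiLCs it stood at 46.7, 49.4 and 56.9 CPM in Neg and at 24.5, 23.6 and 25.6 CPM in 3xKD. Each 3xKD group lay below its Neg group without overlap. The log2 fold change was -1.14 (SE 0.071, adjusted p = 1.67e-09) in ESCs, a level of 45.3% of Neg (95% interval 40.8% to 50.3%), and -1.05 (SE 0.067, adjusted p = 2.38e-09) in EpiLCs, a level of 48.2% (43.7% to 53.1%).

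Me1 encodes the cytosolic, NADP-dependent malic enzyme. Its Neg ESC libraries were at 67.5, 70.1 and 69.8 CPM and its 3xKD ESC libraries at 37.2, 38.6 and 36.2 CPM. The Neg EpiLC libraries, at 33.1, 35.7 and 35.5 CPM, were close to those of the repressed ESCs, and the 3xKD EpiLC libraries fell further, to 17.8, 17.6 and 15.0 CPM. The log2 fold change of 3xKD against Neg was -0.89 (SE 0.057, adjusted p = 2.59e-09) in ESCs and -1.05 (SE 0.064, adjusted p = 1.52e-09) in EpiLCs, leaving 53.9% (49.6% to 58.7%) and 48.4% (44.1% to 53.2%) of the Neg level.

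Me2, the mitochondrial malic enzyme that uses NAD, was at 103, 104 and 96.3 CPM in Neg ESCs and at 53.0, 54.1 and 49.6 CPM in 3xKD ESCs. In EpiLCs the Neg libraries were at 72.8, 70.7 and 69.2 CPM and the 3xKD libraries at 37.5, 35.1 and 35.3 CPM. Again no 3xKD library reached a Neg library of its state. The log2 fold change was -0.95 (SE 0.047, adjusted p = 1.23e-10) in ESCs and -0.98 (SE 0.049, adjusted p = 1.51e-10) in EpiLCs.

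Me3, the other mitochondrial malic enzyme and the one without a guide, was near absence. Summed over 3 libraries it had 2 estimated counts in Neg ESCs, 2 in 3xKD ESCs, 8 in Neg EpiLCs and 3 in 3xKD EpiLCs. A difference was not detectable at this depth: the EpiLC ratio of 3xKD to Neg was 0.369 with a 95% counting interval from 0.063 to 1.54, which covers counting error only. Of the summed TPM of the 3 malic enzymes, Me2 held 66.4% ± 1.8 and Me1 33.6% ± 1.7 in Neg ESCs, against 68.4% ± 2.5 and 31.5% ± 2.4 in 3xKD ESCs. The shares in Neg EpiLCs were 74.6% ± 2.5 for Me2 and 25.3% ± 2.5 for Me1, against 77.4% ± 2.9 and 22.5% ± 2.8 in 3xKD EpiLCs. Within a state the Neg and 3xKD ranges of these shares overlapped, and Me3 held at most 0.239% in any library. From estimated counts in place of TPM the Me2 share was 59.4% in Neg ESCs and 58.3% in 3xKD ESCs, the opposite order, and 67.0% and 68.1% in EpiLCs.

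Mdh1, the cytosolic malate dehydrogenase, was not called. It was at 81.0, 79.1 and 79.9 CPM in Neg ESCs and at 91.2, 87.1 and 86.4 CPM in 3xKD ESCs, groups that did not overlap, with a log2 fold change of 0.14 (95% interval 0.03 to 0.26, adjusted p = 0.0498). In EpiLCs the Neg libraries at 52.8, 52.0 and 57.8 CPM overlapped the 3xKD libraries at 58.9, 52.3 and 61.6 CPM, with a log2 fold change of 0.09 (-0.03 to 0.21, adjusted p = 0.258). Both intervals lie below the fold limit of the call.

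Pck2 was the member that rose in both states. It was at 15.8, 18.4 and 17.1 CPM in Neg ESCs and at 48.6, 44.5 and 45.5 CPM in 3xKD ESCs. In EpiLCs it was at 13.4, 15.9 and 15.0 CPM in Neg and at 51.1, 48.5 and 48.1 CPM in 3xKD. Every 3xKD library stood above every Neg library. The level was 2.69 times that of Neg in ESCs (log2 fold change 1.43, SE 0.070, adjusted p = 1.22e-10) and 3.34 times in EpiLCs (log2 fold change 1.74, SE 0.071, adjusted p = 1.92e-11).

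Pck1, the cytosolic PEPCK of liver and kidney, remained scarce. Its estimated counts were 0, 1 and 1 in Neg ESCs and 3, 3 and 4 in 3xKD ESCs, then 2, 1 and 0 in Neg EpiLCs and 10, 6 and 11 in 3xKD EpiLCs. Each 3xKD library had more counts than any Neg library of its state. Summed counts gave a ratio of 4.73 (95% counting interval 1.01 to 44.4) in ESCs, where the edgeR quasi-likelihood test did not call it (adjusted p = 0.0741), and of 8.85 (2.72 to 45.6) in EpiLCs, where it rose past the limit (adjusted p = 0.003). That EpiLC call rested on few counts and was lost without Neg EpiLCs replicate 2 (adjusted p = 0.0109) or 3 (0.014), and without 3xKD EpiLCs replicate 1 (0.0109) or 3 (0.0134). It was also absent with the stricter filter of edgeR (filterByExpr), which removed the gene, and with DESeq2, which gave it no adjusted p. Of 6 hepatic and visceral endoderm markers, summed at 2.65 to 7.92 CPM over all libraries, 3 or 4 were at or under 3 counts in each library, among them Ttr, at 0 in every EpiLC library, and Alb. Their sum ran from 2.65 to 4.25 CPM in Neg ESCs and from 3.90 to 5.10 in 3xKD ESCs, and from 5.11 to 7.92 in Neg EpiLCs and from 3.85 to 5.18 in 3xKD EpiLCs, and its part in the Pck1 result was not tested.

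The fructose bisphosphatases did not pass the limits. Fbp1, the liver enzyme, had 10 summed counts in Neg ESCs and 22 in 3xKD ESCs, of which 13 came from replicate 2, and 10 in each EpiLC group. Fbp2, the muscle enzyme, was at 2.84, 2.55 and 2.29 CPM in Neg ESCs and at 1.41, 1.1 and 1.96 CPM in 3xKD ESCs, and at 0.801, 1.01 and 1.01 CPM in Neg EpiLCs and 0.496, 0.703 and 0.499 CPM in 3xKD EpiLCs. The 3xKD libraries lay below the Neg libraries in each state, with log2 fold changes of -0.77 (95% interval -1.31 to -0.24, adjusted p = 0.0218) and -0.72 (-1.39 to -0.05, adjusted p = 0.0862). Without 3xKD ESCs replicate 3 the ESC value was -1.02 (adjusted p = 0.00842), past the limits. Beside this, the summed level of 6 muscle markers, mostly from Des and Myh3, was 10.8 to 12.5 CPM in Neg ESCs and 20.4 to 24.3 in 3xKD ESCs, and 16.8 to 19.5 in Neg EpiLCs and 26 to 27.6 in 3xKD EpiLCs. Their part in the Fbp2 values was not tested.

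**Figure D2:**
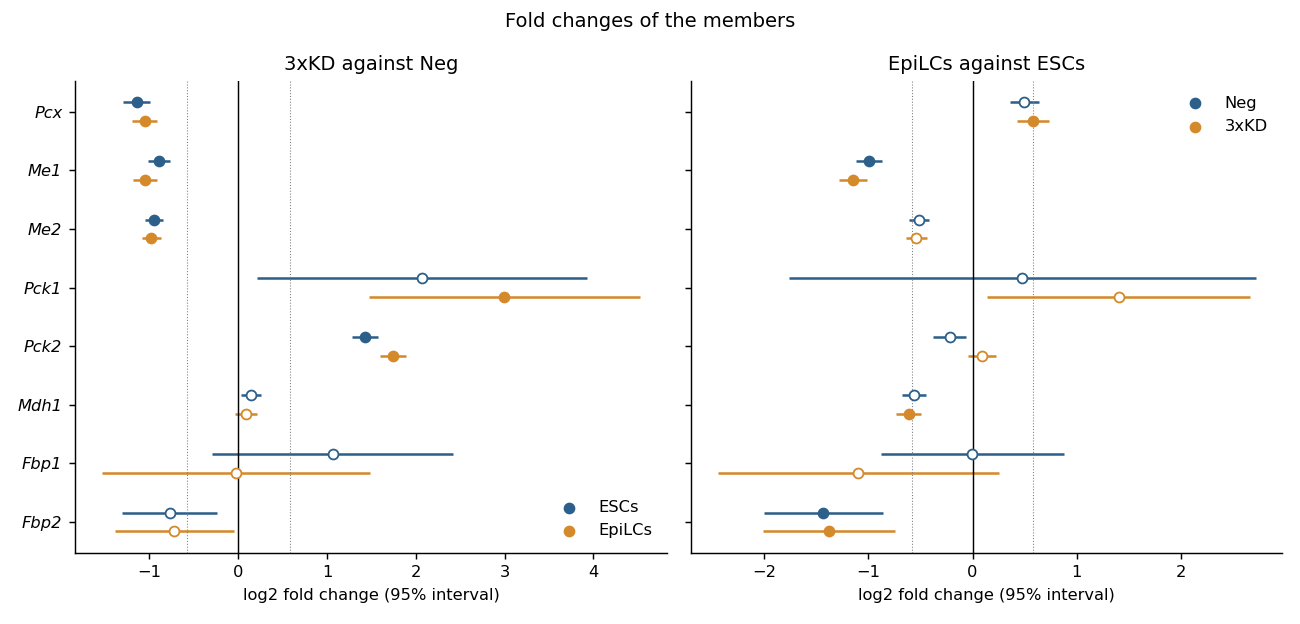
Log2 fold change (x axis) of 8 members for 3xKD against Neg in each state (left) and EpiLCs against ESCs in each line (right), with 95% intervals as horizontal lines. Filled points passed the limits, open points did not, and dotted lines mark 0.58. Me3 is not drawn, since its ESC groups have 2 summed counts each. The targets sit near -1 and Pck2 between 1.43 and 1.74 on the left.

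Whether the response to repression depended on the cell state was tested as the difference of the log2 fold changes, EpiLCs minus ESCs. This difference was called at an adjusted p under 0.01, with no fold limit, for 10% of all genes and for 0 of the 9 members. DESeq2 also called 0, but gave 3 members no adjusted p here, so these could not be called. At an unadjusted p under 0.05 there was 1 member, Pck2, with a difference of 0.31 (SE 0.099, 95% interval 0.10 to 0.52, adjusted p = 0.0417). It was 0.10 with transcript-length offsets (adjusted p = 0.85), and 0.22 to 0.36 with 1 library left out in turn. The targets had narrow intervals, from -0.12 to 0.29 for Pcx, -0.34 to 0.03 for Me1 and -0.17 to 0.12 for Me2. Those of Pck1 (-2.14 to 3.99) and Me3 were too wide to compare the states.

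The change of state itself moved the members in different directions. In the Neg line 9.78% of all genes passed the limits as higher in EpiLCs than in ESCs, and 11% as lower, and in the 3xKD line 9.42% were higher and 9.32% lower. Of the 9 members, 0 were higher and 2 lower in Neg, and 1 was higher and 3 lower in 3xKD. These contrasts use the same libraries as those of 3xKD against Neg and are not independent of them.

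Me1 fell with the transition in both lines, by 0.99 on the log2 scale in Neg (SE 0.058, adjusted p = 2.99e-10) and by 1.15 in 3xKD (SE 0.063, adjusted p = 1.94e-10). Fbp2 also fell in both, by 1.43 (SE 0.27, adjusted p = 0.000283) and 1.38 (SE 0.30, adjusted p = 0.00112). Me2 had log2 fold changes of -0.51 (SE 0.046) in Neg and -0.54 (SE 0.049) in 3xKD, with adjusted p-values of 7.25e-08 and 1.2e-07, yet short of the fold limit. Mdh1 straddled that limit, at -0.56 (SE 0.056) in Neg, not called, and -0.61 (SE 0.055, adjusted p = 9.88e-08) in 3xKD, called. The 3xKD call was lost without 3xKD ESCs replicate 1 (-0.58) or 3xKD EpiLCs replicate 2 (-0.55), and with upper-quartile factors (-0.54) or library size alone (-0.58). The Neg value passed the limit without Neg EpiLCs replicate 3 (-0.61) and with library size alone (-0.60).

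Pcx went the other way. It was 1.41 times as high in Neg EpiLCs as in Neg ESCs (log2 fold change 0.50, SE 0.065, adjusted p = 7.33e-06), below the fold limit except without Neg EpiLCs replicate 1 (0.59), and 1.5 times as high in the 3xKD line (log2 fold change 0.58, SE 0.072, adjusted p = 4.37e-06), just past it. The 3xKD call ended without 3xKD ESCs replicate 2 (0.58) or 3xKD EpiLCs replicate 3 (0.56), and with transcript-length offsets the value was 0.32 (SE 0.22, adjusted p = 0.33). Pck2 was not called between the states, with a log2 fold change of -0.22 (95% interval -0.38 to -0.06, adjusted p = 0.0269) in Neg and 0.09 (-0.04 to 0.23, adjusted p = 0.276) in 3xKD. In the order of its 4 group means, then, Neg EpiLCs were beside Neg ESCs and 3xKD ESCs beside 3xKD EpiLCs, with the step between the lines.

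Of the 50 annotated member transcripts, 31 had a mean of at least 0.1 TPM in some group. The counts of Pcx were assigned to different full-length transcripts in the lines. ENSMUST00000224726 was at 5.07, 7.02 and 5.21 TPM in Neg ESCs and 7.68, 10.03 and 10.9 TPM in Neg EpiLCs, and at 0 in 5 of the 6 3xKD libraries, the exception being 3xKD ESCs replicate 2 at 2.24 TPM. ENSMUST00000068004 was at 0 in the Neg ESC libraries and at 0.49, 0 and 0.51 TPM in Neg EpiLCs, but at 2.04, 0.40 and 2.61 TPM in 3xKD ESCs and 4.69, 3.85 and 3.78 TPM in 3xKD EpiLCs. The share of the former among all Pcx TPM was 66.8% ± 7.2 in Neg ESCs and 72.2% ± 16 in Neg EpiLCs, and the share of the latter was 51.8% ± 45 in 3xKD ESCs and 80.6% ± 15 in 3xKD EpiLCs. These models have deposited lengths of 4061 and 4148 bases and the annotation used here gives them other lengths, so the bases in which they differ were not examined. From estimated counts in place of TPM the former held 96.7% and 94.3% in the Neg groups (ESCs and EpiLCs) and the latter 70.8% and 98.5% in the 3xKD groups.

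For Me1 and Me2 the same transcript had the highest mean share in each group. For Me1 the full-length ENSMUST00000034989 held 72.7% ± 6.6 of the TPM in Neg ESCs and 86.4% ± 12 in 3xKD ESCs, then 88.2% ± 20 in Neg EpiLCs and 94.2% ± 10 in 3xKD EpiLCs. The shorter ENSMUST00000189968 was at 5.21, 3.99 and 5.07 TPM in Neg ESCs but moved between 0 and 3.59 TPM within the other groups, so its share could not be ordered. For Me2, ENSMUST00000025439 held 67.9% ± 3.5, 65.8% ± 2.4, 73.4% ± 4.0 and 68.4% ± 2.9 in Neg ESCs, 3xKD ESCs, Neg EpiLCs and 3xKD EpiLCs, and ENSMUST00000237619 held 30.9% ± 3.3, 32.6% ± 2.4, 25.7% ± 3.9 and 30.4% ± 2.9. These shares depend on the length scaling: from estimated counts, in the same order, the former Me2 transcript held 90.5%, 89.5%, 92.6% and 90.6% and the latter 8.05%, 8.65%, 6.36% and 7.87%. ENSMUST00000034989 of Me1 then held 90.9% in Neg ESCs. Pck2 was spread over 10 transcripts above 0.1 TPM. By TPM the leading one was ENSMUST00000226650, with 43.2% ± 9.9 in Neg ESCs and 37.2% ± 3.4 in 3xKD ESCs. It stood at 2.16 ± 0.11 TPM in Neg ESCs and 4.62 ± 0.57 TPM in 3xKD ESCs. From estimated counts it held 34.0% in Neg ESCs and 28.4% in 3xKD ESCs, beside 28.4% and 36.2% for ENSMUST00000048781. The latter thus led by counts in 3xKD ESCs, and also in Neg EpiLCs (30.25% against 25.7%).

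**Figure D3:**
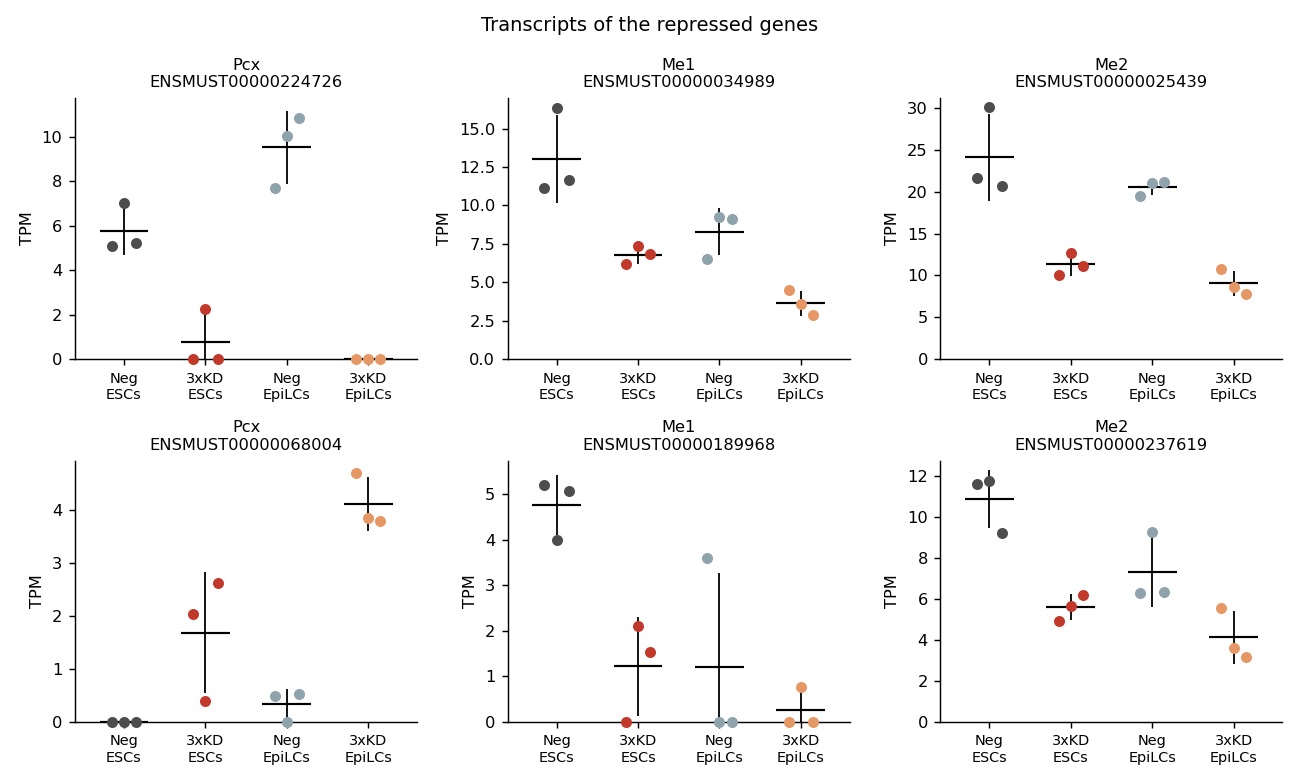
TPM (y axis, linear, from 0, different in each panel) of the leading pair of transcripts of Pcx, Me1 and Me2 in the 12 libraries by group (x axis). Points are libraries, horizontal bars means and vertical bars 1 SD, cut off at 0. The 2 Pcx transcripts trade places between Neg and 3xKD, except in 3xKD ESCs replicate 2, while both Me2 transcripts are lower in 3xKD.

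The third guide lay on another chromosome. The Me2 guide matched chr18:73948468-73948486 on the minus strand, also in exon 1 and the 5′ UTR, 379 bases into the gene from its canonical start site and 32 bases from the nearest annotated one. Genes with a start site within 50 kb of a guide match were followed as neighbours. There were 4 around the Pcx guide, 6 around the Me1 guide and 5 around the Me2 guide, of which 1, 2 and 1 were tested. Of the rest, 1 around Pcx and 4 around Me1 had too few counts, and 2 around Pcx and 4 around Me2 were not analysed here. Prss35, a gene of the serine protease family starting 39078 bases upstream of the Me1 guide, was lower in 3xKD ESCs (log2 fold change -1.60, SE 0.15, adjusted p = 2.14e-07) and was not called in EpiLCs (-0.83, SE 0.27, adjusted p = 0.0226). The lncRNA A330041J22Rik, whose start lies 295 bases from the Me1 guide on the opposite strand from Me1, averaged 0.136 CPM and was not called. Syt12, upstream of Pcx, and Mro, upstream of Me2, averaged 1.05 and 0.084 CPM and were not called in either state. Their log2 fold changes were 0.67 (SE 0.36) and -0.82 (SE 0.98) in ESCs. In EpiLCs they were 1.06 (SE 0.36) and 3.82 (SE 1.55). These values do not show that the 2 genes were unchanged.

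The wider pathway was read from lists of genes around the members, chosen with earlier results of these data known. Of all genes tested, 8.5% were called higher and 6.78% lower in 3xKD ESCs, and 7.88% and 5.35% in 3xKD EpiLCs. All genes include those with few counts, where a call is harder, so the list counts below are descriptive only. Among 15 oxaloacetate, malate and citrate partners, 2 were higher and 1 lower in 3xKD ESCs, and 3 were higher and 1 lower in 3xKD EpiLCs, with median log2 fold changes of 0.33 and 0.09 beside 0.03 for all genes tested in each state. Slc25a1, the mitochondrial citrate exporter, rose in ESCs (0.78, SE 0.043, adjusted p = 4.05e-10) and in EpiLCs (1.11, SE 0.045, adjusted p = 1.74e-11). Got1, the cytosolic aspartate aminotransferase that draws on oxaloacetate, rose as well, by log2 fold changes of 0.99 (SE 0.043) and 0.60 (SE 0.044). Slc25a10, a mitochondrial dicarboxylate carrier that exchanges malate, fell by 1.07 (SE 0.11) and 0.59 (SE 0.11) on the log2 scale. Hlcs, the ligase that attaches biotin to carboxylases including pyruvate carboxylase, was at 0.51 in ESCs, short of the fold limit, and rose by 0.66 (SE 0.065, adjusted p = 3.95e-07) in EpiLCs. The mitochondrial malate dehydrogenase Mdh2 was not called, with log2 fold changes of 0.25 in ESCs and 0.01 in EpiLCs.

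The reversible steps that glycolysis and gluconeogenesis share, with the glucose-6-phosphatase system, made a list of 19 genes, of which 16 were tested. In 3xKD ESCs 12 were higher and 0 lower, with a median log2 fold change of 0.65, and in 3xKD EpiLCs 7 were higher and 0 lower, with a median of 0.43. The brain-type aldolase Aldoc rose from 14.9 to 59.7 CPM in ESCs and from 5.53 to 23.5 CPM in EpiLCs, and the neuronal enolase Eno2 from 3.50 to 15.1 CPM and from 1.56 to 4.63 CPM (group means). G6pc3, the widely expressed glucose-6-phosphatase, rose by 0.94 (SE 0.097) in ESCs and 1.07 (SE 0.11) in EpiLCs on the log2 scale. Pgam2, the muscle phosphoglycerate mutase, rose in ESCs from 0.299 to 1.52 CPM and was not called in EpiLCs. The liver glucose-6-phosphatase G6pc1 had too few counts to be tested. Eno1 and Eno1b are near-identical copies and Gapdh has many processed copies, so their counts are uncertain as to source.

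Of the 13 genes of the opposing, glycolytic steps, 4 were higher in 3xKD ESCs and 3 in 3xKD EpiLCs, and 0 were lower in either, with median log2 fold changes of 0.38 and 0.29. Hk1, a hexokinase, rose by 1.11 (SE 0.041) in ESCs and 0.96 (SE 0.047) in EpiLCs on the log2 scale, and the platelet-type phosphofructokinase Pfkp by 0.87 (SE 0.042) and 1.11 (SE 0.044). Pkm and Pklr, the pyruvate kinases that PEPCK bypasses, were not called, with log2 fold changes of 0.51 and 0.14 in ESCs and 0.20 and 0.30 in EpiLCs. These values were short of the fold limit, which does not show that the genes were unchanged.

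Among 10 regulators of gluconeogenic transcription, such as Ppargc1a, Foxo1 and Hnf4a, 1 was called in ESCs and 0 in EpiLCs, with median log2 fold changes of -0.02 and -0.25. The deacetylase gene Sirt1 fell by 1.00 on the log2 scale in ESCs (SE 0.044, adjusted p = 3.45e-11) and had a log2 fold change of -0.47 in EpiLCs, short of the fold limit. Cebpb was at 0.57 in ESCs and 0.06 in EpiLCs, neither called.

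The last list held ATF4, a transcription factor of the amino acid and stress response, with 13 genes known as its targets. Of these 14 genes, 7 were higher in 3xKD ESCs and 8 in 3xKD EpiLCs, and 0 were lower, with median log2 fold changes of 0.66 and 0.75. Ddit3, encoding the stress factor CHOP, rose from 12.3 ± 0.41 to 48.9 ± 0.61 CPM in ESCs and from 18.9 ± 0.88 to 47.0 ± 3.1 CPM in EpiLCs. Nupr1, a stress-induced chromatin protein gene, rose from 7.42 ± 0.70 to 29.5 ± 0.71 CPM and from 5.43 ± 0.82 to 24.9 ± 2.8 CPM. Trib3, a pseudokinase gene, rose by 1.58 (SE 0.083) and 1.76 (SE 0.081) on the log2 scale, while Atf4 itself was not called, at 0.40 and 0.17, short of the fold limit.

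**Figure D4:**
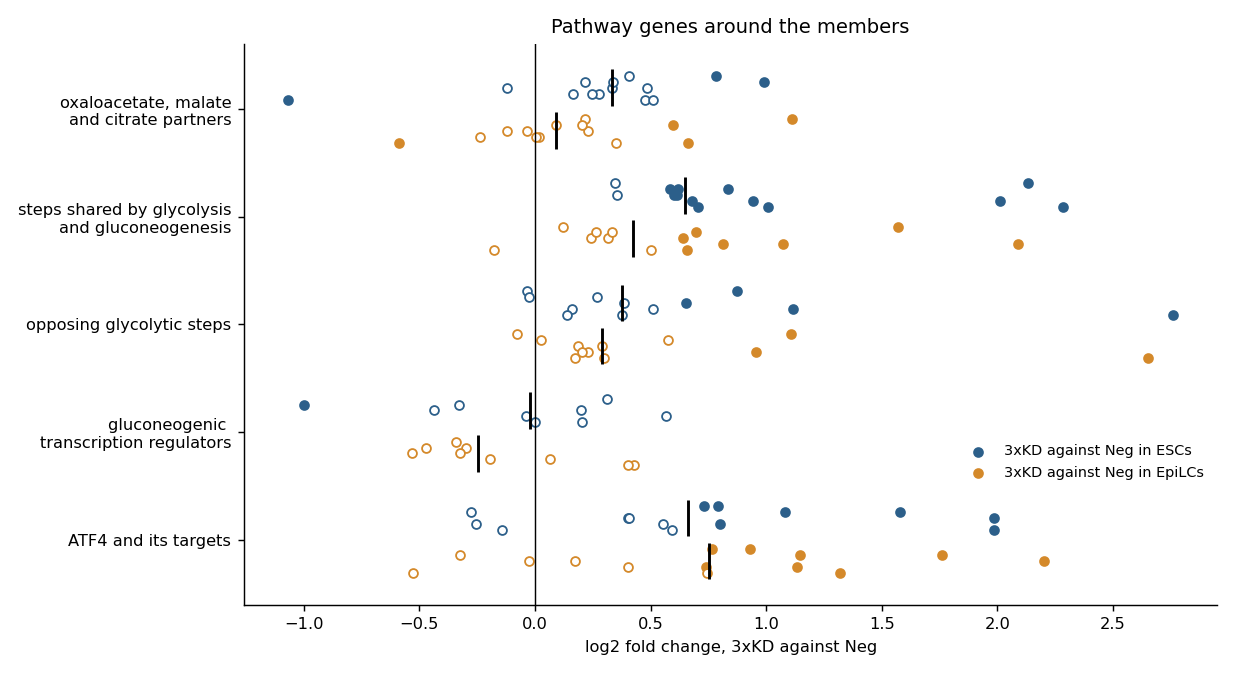
Log2 fold change of 3xKD against Neg (x axis) for the genes of the 5 lists (y axis), in ESCs and in EpiLCs, for the 63 of 68 tested genes averaging 0.2 CPM or more. Filled points passed the limits, open points did not, and black bars are medians over all tested genes of the list; small vertical offsets only separate points. Called genes lie to the right of 0 in each list except for Slc25a10 and Sirt1.

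The promoters of the members and of this list were searched for the ATF4 response element core TGATGNAA on both strands, in windows from 250 bases before to 50 after the start site (RefSeq, GRCm38.p6). Windows were found for 8 of the 9 members and for 13 of the 14 genes of the list. Genes of the list were chosen as known targets of ATF4, so they are no independent reference for Pck2. The core was in 3.97% of all 32851 windows and in 2 of the 10 windows of members (Pck2 and Me3). It was in 5 of the 15 windows of list genes (Asns, Chac1, Nupr1, Slc7a11 and Trib3). The match of Pck2 is shown beside those of 3 of these genes, read along the gene, with the core or its reverse complement in capitals:
Pck2: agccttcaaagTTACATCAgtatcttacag
Asns: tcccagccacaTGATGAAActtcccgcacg
Chac1: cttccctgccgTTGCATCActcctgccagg
Nupr1: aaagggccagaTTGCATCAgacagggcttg

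These lie at chr14:55540152-55540181 (plus strand) for Pck2, chr6:7693214-7693243 (minus) for Asns, chr2:119351038-119351067 (plus) for Chac1 and chr7:126625562-126625591 (minus) for Nupr1. The core began 103 bases upstream of the start site in Pck2. A match describes letters and not binding, and Slc7a11, which has the core on both strands, was not called, at log2 fold changes of 0.41 in ESCs and -0.03 in EpiLCs.

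For each member averaging 1 CPM or more, the genes with the most similar profile were found by Pearson correlation of log2 CPM over the 12 libraries, which share the group structure, so high values come easily. For Pck2 these were Pycr1 (r = 0.995), Btg3 (0.995) and Phgdh (0.994). Pycr1 makes proline and Phgdh opens serine synthesis, and Pycr1 had log2 fold changes of 1.00 and 1.35 in 3xKD ESCs and EpiLCs. For Pcx they were Mysm1 (0.993), Zfp120 (0.992) and Zfp997 (0.992), and for Me1 they were Nr0b1 (0.993), Dazl (0.991) and Cic (0.990). For Me2 they were Gtf2h1 (0.992), Fubp3 (0.990) and Arl5a (0.989). Mdh1 was most like Aldh1l1 (0.992), Bcl2l14 (0.989) and Pou2f3 (0.986), and Fbp2 most like Mmp19 (0.982), Sertad1 (0.976) and Atp6v1b2 (0.974). The genes most like the guide targets include ones without a guide, such as the naive pluripotency regulator Nr0b1, whose log2 fold changes of -0.94 in ESCs and -0.84 in EpiLCs were near those of Me1.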

How the data were processed

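Per the submitters' processing notes, reads were trimmed by the authors (Trim Galore 0.6.7), aligned to GRCm39 (STAR 2.7.9a) and quantified per transcript (Salmon 1.10.1). Libraries were made by rRNA depletion with a directional kit, although the labels name polyA RNA as the molecule. The deposited tables give estimated counts per transcript, not normalized, and the authors' TPM, scaled by transcript length and library total. Libraries were grouped by title, because the cell type field of the labels contradicts the titles for some libraries.

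Counts were summed per gene and rounded. Genes whose counts summed to 10 or more entered edgeR 4.0.16 (quasi-likelihood, TMM, 12 libraries, 4 groups), with Benjamini-Hochberg adjustment over all 25446 genes. DESeq2 1.42.0 was an alternative. The standard error is the fold change divided by the square root of F. The edgeR fit was tested on simulated counts, and the other steps were not. TPM were used for shares, for levels of transcripts and for a check of Pck2 against Me2, and not for the tests. The study's methods describe its experiments in general as biological triplicates, but the labels do not say that these replicates were separate cultures, and p-values measure the spread between these samples. Guides were matched to GRCm39 with GENCODE annotation, and promoters are RefSeq sequences of GRCm38.p6. Members and lists were chosen with earlier results of these data known. Genes named were the members, up to 3 called genes with the largest change per list and state, the 3 most similar genes per member, neighbours within 50 kb of a guide, and transcripts of at least 0.1 TPM; a few others, such as pyruvate kinases, were named after their values were seen. A gene that this rule would name is not reported here.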

Additional observations from a re-analysis of the deposited data

Results flagged for a closer look

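The effect of repression differed between the states (difference of log2 fold changes, EpiLCs minus ESCs, edgeR quasi-likelihood test, adjusted p under 0.01) for 23 of the 68 tested genes of the 5 pathway lists (33.8%), beside 10% of all genes. The lists were chosen with earlier results of these data known. All genes also include those with few counts, where a difference is harder to call. The higher percentage for the lists is therefore no evidence that they depend more on the state than other genes. Of 61 genes tested by name, 13 were called, of which 0 were members. Some of these genes were named after their values were seen, so this count is descriptive only.

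The difference was below 0 for Got1 (-0.40, SE 0.062, adjusted p = 0.000239), Ddit3 (-0.67, SE 0.087, adjusted p = 4.37e-05) and Foxo1 (-0.65, SE 0.071, adjusted p = 7.17e-06), a regulator with log2 fold changes of 0.31 in ESCs and -0.34 in EpiLCs. It was also below 0 for Mdh2 (-0.24), Eno1 (-0.30), Eno1b (-0.28), Gapdh (-0.36), Pkm (-0.31), Atf4 (-0.23) and Dazl (-0.32). It was above 0 for Slc25a1 (0.33, SE 0.061, adjusted p = 0.00122), for Asns (1.39, SE 0.044, adjusted p = 1.2e-11) and for Sirt1 (0.53, SE 0.061, adjusted p = 1.32e-05), whose fall was smaller in EpiLCs.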

How the results depend on the processing

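With 1 of the 12 libraries left out in turn, the members called numbered 4 to 5 for 3xKD against Neg in ESCs, 4 to 5 in EpiLCs, 2 to 3 for EpiLCs against ESCs in Neg, 3 to 4 in 3xKD and 0 for the difference between states. The calls of Pcx, Me1, Me2 and Pck2 for 3xKD against Neg held in each of these fits. An adjusted p under 0.05 with no fold limit gave 10140 genes in ESCs and 9694 in EpiLCs (main 3888 and 3367), 11232 and 10838 between states in Neg and 3xKD (main 5292 and 4768) and 4127 for the difference (main 2549). It called 6 members between states in Neg (main 2) and 1 for the difference. A log2 fold change above 1 gave 1850, 1426, 3436 and 2874 genes in the same order, and 2 members in ESCs, 1 between states in Neg and 2 in 3xKD. It ended the calls of Me1 in ESCs and of Me2 in both states. Transcript-length offsets gave 731 genes for the difference, and library size alone moved the share of higher calls in it from 47.5% to 64.9%. DESeq2 gave no adjusted p for 1 to 3 members per comparison. Shares computed from estimated counts in place of TPM moved by more than 1 SD for 10 of 12 malic enzyme shares and 47 of 108 transcript shares. Leaving out 1 library moved none by that much. A mean of 3 libraries cannot shift by 1 SD in this way, so this is no test of the shares.

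Same-numbered libraries had correlations of deviations from their group means between -0.135 and 0.0999, so the replicate numbers were not taken as pairs. With a replicate block the members called were 4, 5, 2, 4 and 0 in the 5 comparisons, and the genes 3791, 3277, 5169, 4665 and 2323. Depth limits Me3, Pck1 and Fbp1, which had at most 27 counts in any group.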

Other observations

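Asparagine synthetase (Asns), chosen after its values were seen, had the most state-dependent response in the list of ATF4 and its targets. Its log2 fold change of 3xKD against Neg was -0.25 in ESCs and 1.14 in EpiLCs (difference 1.39, SE 0.044, adjusted p = 1.2e-11, edgeR quasi-likelihood test), whereas Phgdh and Psat1, which make serine, rose in both states, by 1.08 and 0.79 in ESCs and by 1.15 and 0.77 in EpiLCs.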
